A study of Mus musculus with 15 samples.

Results

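The 10 genes described here encode the kinases and adaptors that sit closest to the pre-B cell receptor and to its T cell counterpart. They are Lyn, Blk, Fyn and Lck (Src family kinases), Syk and Zap70 (SYK family kinases), Btk (a TEC family kinase), Plcg2 (phospholipase C gamma 2), and the adaptors Blnk and Lat. They were taken by symbol, as 10 of the 55335 gene identifiers in the count files, and all 10 passed the filter on low counts that left 13077 tested genes. RNA was sequenced from cultured mouse pre-B cells, with 3 libraries titled wild type for Msl2 and 3 titled Msl2 knockout. Per the labels, all 6 libraries share the SLP65 knockout background, and the cells derive from bone marrow, were taken through a single-cell subclone and were grown without further treatment in medium with interleukin 7. The knockout line was made by electroporation of a guide RNA against Msl2, which encodes a ubiquitin ligase of the MSL histone acetyltransferase complex. Each genotype is represented by 1 line, and nothing in the labels states that its libraries came from different cultures. The p-values thus refer to library-to-library spread that may be purely technical, and line and genotype cannot be told apart. Values of 3 libraries are given in the order of replicates 1, 2 and 3.

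The genotype tags of the 6 RNA libraries say the opposite of their titles, and groups, like every direction given here, follow the titles. Msl2 RNA measured 97.1, 99.3 and 92.3 CPM (counts scaled to library size with TMM factors) in the wild type and 105, 103 and 121 CPM in the knockout. A small edit can leave the gene's total count as it was, so these levels do not settle whether titles or tags are right. Total counts ran from 14092278 to 20803227 per library. The 16 markers of pre-B cells summed to between 6690 and 7460 CPM in the wild type and between 6200 and 7570 CPM in the knockout, and the receptor genes Cd79a, Cd79b, Igll1 and Vpreb1 lay between 174 and 558 CPM in every library. Ighm alone gave 2980 to 4280 CPM of these sums. Low in the same list, besides Rag1 and Rag2 given below, were Dntt, at 0.199 to 1.06 CPM, and Il2ra, at 2.71 to 11.3 CPM. Of the 15 tested markers 1 was called, the interleukin 7 receptor gene Il7r, which fell from 82 ± 12.5 to 28.1 ± 11.3 CPM (log2 -1.53 ± 0.23, edgeR adjusted p 0.00392). The recombinase gene Rag1 had 0, 34 and 0 reads in the wild type and 29, 17 and 9 in the knockout. Its partner Rag2 had 0, 27 and 0 reads in the wild type and 54, 44 and 37 in the knockout (edgeR adjusted p 0.223). Wild-type replicate 2 thus had reads of both genes, as the knockout libraries did, and it also stood between the other wild-type libraries and the knockout in Blk. In Lck (137 CPM) and Dok2 (37.2 CPM), described below, it lay with the wild type. Whether this library held cells or RNA of another kind was not tested, so a wild-type mean of Blk is a mean over unlike libraries. The root mean square of the 500 largest log2 differences between 2 libraries was 1.3 to 1.63 within groups and 1.69 to 2.61 between groups, and it was lowest between groups for wild-type and knockout replicate 2.

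The pre-B cell receptor joins an immunoglobulin heavy chain to a surrogate light chain and signals through CD79A and CD79B. Src family kinases, chiefly LYN, BLK and FYN in B lineage cells, phosphorylate the tails of these chains and SYK then docks there. SYK phosphorylates SLP65, the product of Blnk, which brings BTK and phospholipase C gamma 2 together so that the lipase is activated and calcium rises. T cells use a parallel set, in which LCK, ZAP70, LAT and SLP76 (encoded by Lcp2) take the places of the B cell kinases and adaptors.

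Lck and Lat, both best known from T cells, fell in the knockout, while Blk lay higher in every knockout library but was called only in some of the fits run. The other 7 members were not called. Of the 10 members, edgeR's quasi-likelihood test called 2 lower and 0 higher. A call means an adjusted p (Benjamini-Hochberg, across the 13077 tested genes) below 0.05. Of all tested genes, 2.79% were called lower and 1.8% higher (4.59% in all). At an unadjusted p under 0.05 there were 4 members (Lck, Lat, Blk and Btk), beside 15.4% of all tested genes, and DESeq2 likewise called 2 lower and 0 higher, against 3.56% and 2.5% of the genes it tested (6.07% in all). In 5 members the groups did not overlap, namely Lck and Lat with the knockout below and Blk, Btk and Plcg2 with the knockout above. Such separation held for 20.9% of all tested genes, in 11.2% with the knockout below and in 9.68% with it above. The median log2 fold change (knockout minus wild type, as throughout) was 0.08 over the members and 0.004 over all tested genes.

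**Figure D1:**
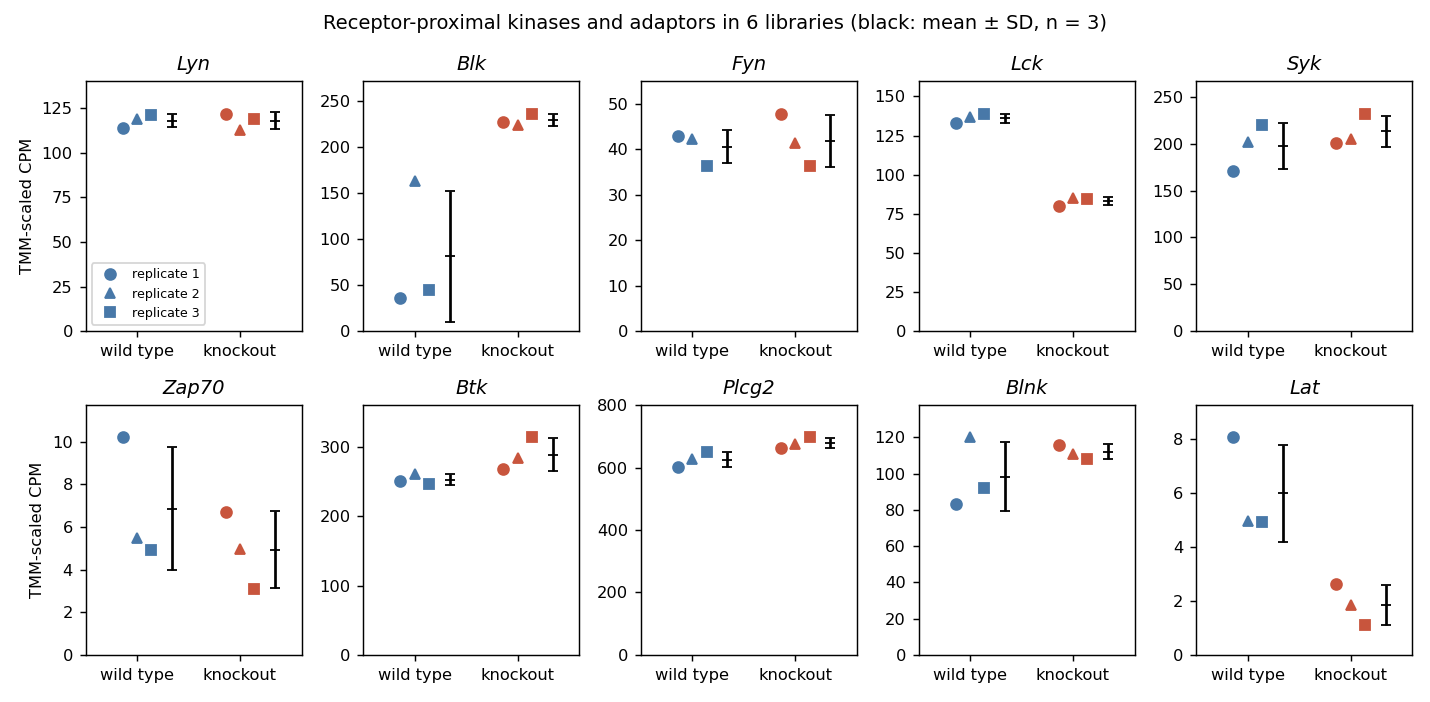
TMM-scaled CPM of the 10 members (y axis, each panel with its own scale from 0) in the 3 wild-type (blue) and 3 knockout (red) libraries, with symbols for replicate numbers and black bars for the mean and SD. Lck and Lat are lower in all 3 knockout libraries, and the Blk panel shows wild-type replicate 2 at 163 CPM against 36.1 and 44.5 CPM in the other wild-type libraries.

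Among the Src family kinases, Lck (ENSMUSG00000000409.14, chromosome 4, 129548344 to 129573641, mm10) gave the clearest difference. The wild-type libraries measured 133, 137 and 139 CPM and the knockout libraries 80.1, 84.8 and 84.7 CPM. Within each group the libraries lay close together, and the groups were far apart compared with that spread. The mean fell 1.64-fold, from 136 ± 2.84 to 83.2 ± 2.71 CPM (SD, n = 3 each). In edgeR the log2 fold change was -0.71 ± 0.07 (SE) and the adjusted p 0.000468. Without each library, or both libraries numbered 2, the log2 fold change lay between -0.73 and -0.686 and the call was kept, in fits that called 1.73% to 2.37% of tested genes lower.

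Blk (ENSMUSG00000014453.4, chromosome 14, 63372837 to 63417187), a Src family kinase found mainly in B lineage cells, had 511, 2888 and 670 reads in the wild type and 3650, 4774 and 3577 in the knockout. In CPM these were 36.1, 163 and 44.5 against 227, 224 and 236. The knockout libraries were nearly alike, and all lay above the wild type, but wild-type replicate 2 was far closer to them than to the other wild-type libraries. The group means were 81.1 ± 70.9 and 229 ± 6.25 CPM, and the log2 fold change of 1.49 ± 0.44 (SE) did not pass the test (edgeR adjusted p 0.101). With all 6 libraries Blk was called by limma-voom (adjusted p 0.034), with a replicate block (0.0321) and without a filter on low counts (1.13e-54), but not by DESeq2 (0.289). Without a filter each gene took the spread of the trend, with an SE of 0.09 for Blk. That p thus leaves out the spread of Blk's own wild-type libraries. Of all tested genes, limma-voom called 1.83% higher, the fit with the block 2.91% and the unfiltered fit 1.81%. Without wild-type replicate 1 or 3 the log2 fold change was 1.14 or 1.19 and Blk was not called (edgeR adjusted p 0.218 and 0.221). Without wild-type replicate 2 it was 2.51 ± 0.12 (SE), a 5.68-fold difference that edgeR called. That library was set apart by its Blk value, so the smaller spread follows from leaving it out, and the value is a description. Of all genes tested in that fit, 1.7% were called higher and 2.07% lower (3.77% in all). Without both libraries numbered 2 the log2 fold change of Blk was 2.53 ± 0.14 (SE), which describes the same libraries less 1 of the knockout, where 1.36% of tested genes were called higher and 1.73% lower (3.09% in all). Fam167a, the tested gene nearest to Blk at a distance of 19.2 kb, was at 0.424, 1.3 and 0.398 CPM in the wild type and 2.11, 1.31 and 1.12 CPM in the knockout (edgeR adjusted p 0.333). It was named after its values were seen, and here too wild-type replicate 2 was the highest of its group.

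Lyn (ENSMUSG00000042228.14, chromosome 4, 3678068 to 3791612), a kinase with activating and inhibitory roles at the B cell receptor, was the steadiest member. Its libraries lay at 114, 119 and 121 CPM in the wild type and 122, 113 and 119 CPM in the knockout, and the ranges overlapped almost fully. The log2 fold change was 0.00 with a 95% interval from -0.16 to 0.15 (edgeR adjusted p 0.998). Fyn (ENSMUSG00000019843.14, chromosome 10, 39369743 to 39565381), which acts in both B and T cells, was at 43, 42.2 and 36.4 CPM in the wild type and 47.8, 41.4 and 36.2 CPM in the knockout. These groups overlapped as well, with a log2 fold change of 0.05 and a 95% interval from -0.21 to 0.3 (edgeR adjusted p 0.923).

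Since reads of these kinases are counted in the same library, the share of each among their sum does not depend on how libraries are scaled. Lck took 40.8%, 29.7% and 40.7% of the summed reads of Lck, Lyn, Blk and Fyn in the wild type and 16.8%, 18.3% and 17.8% in the knockout. The knockout shares lay below all wild-type shares, with means of 37.1 ± 6.42% and 17.6 ± 0.776% and a difference of -19.5 percentage points. Blk enters the sum, and its high counts in the knockout and in wild-type replicate 2 lower the share of Lck there. With Blk left out of the sum, Lck took 45.9%, 45.9% and 46.9% in the wild type and 32%, 35.4% and 35.3% in the knockout. That difference, computed after the values were seen and not tested, was -12 percentage points. For the share with Blk in the sum, an exact two-sided permutation test over the 6 libraries gave a p of 0.1. This is the smallest that 3 against 3 libraries can give, and it was 0.2 when adjusted over 4 such shares. Over leaving out each library, the difference with Blk in the sum stayed between -23.2 and -17.6 percentage points.

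Syk (ENSMUSG00000021457.14, chromosome 13, 52582610 to 52648792), the kinase that docks on the phosphorylated receptor tails, was at 171, 202 and 220 CPM in the wild type and 201, 205 and 232 CPM in the knockout. The knockout values fell largely inside the wild-type range, and the log2 fold change of 0.10 had a 95% interval from -0.12 to 0.33 (edgeR adjusted p 0.737). Zap70 (ENSMUSG00000026117.10, chromosome 1, 36761798 to 36782821), its relative in T cells, had 144, 97 and 74 reads in the wild type and 108, 106 and 47 in the knockout. In CPM these were 10.2, 5.47 and 4.91 against 6.72, 4.98 and 3.1, so the groups overlapped and replicate 1 was the highest in both. The log2 fold change was -0.46 ± 0.33 (SE) with an edgeR adjusted p of 0.6, and it shrank to -0.0738 without wild-type replicate 1. Zap70 took 3.48 ± 1.86% of the summed reads of Syk and Zap70 in the wild type and 2.31 ± 0.962% in the knockout (exact permutation p 0.5, adjusted p 0.6).

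Btk (ENSMUSG00000031264.13, chromosome X, 134542334 to 134583628), the kinase that phosphorylates phospholipase C gamma 2, was at 251, 261 and 246 CPM in the wild type and 268, 284 and 314 CPM in the knockout. All knockout libraries lay above the wild type by a small margin. The means were 253 ± 7.57 and 289 ± 23.5 CPM, and the log2 fold change of 0.19 ± 0.08 (SE) had a 95% interval from 0.02 to 0.37. Its unadjusted p was 0.035 and its adjusted p over all tested genes 0.267 in edgeR. Plcg2 (ENSMUSG00000034330.10, chromosome 8, 117498275 to 117635142), the lipase itself, was at 602, 628 and 649 CPM in the wild type and 664, 675 and 697 CPM in the knockout. Here too the groups did not overlap, but the log2 fold change was 0.12, with a 95% interval from -0.04 to 0.28 (edgeR adjusted p 0.534).

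Blnk (ENSMUSG00000061132.13, chromosome 19, 40928927 to 40994221) encodes SLP65, the adaptor that the labels say these cells lack. Its gene had 1177, 2121 and 1389 reads in the wild type and 1863, 2372 and 1632 in the knockout, or 83.2, 120 and 92.2 CPM against 116, 111 and 108 CPM. Reads were thus present in all 6 libraries, and the counts do not show which exons they came from. Wild-type replicate 2 was the highest of all libraries, and the other wild-type libraries were the lowest. The log2 fold change was 0.18 with a 95% interval from -0.08 to 0.45 (edgeR adjusted p 0.563). Without wild-type replicate 1 or 3 the log2 fold change was 0.07 or 0.14 (edgeR adjusted p 0.879 and 0.69). Without wild-type replicate 2 it was 0.35 ± 0.09 (SE), with an edgeR adjusted p of 0.0828, and the groups no longer overlapped. That library was the highest in Blnk, so this separation follows from leaving it out and is a description. Lcp2, which encodes the related adaptor SLP76, was at 11.7, 8.12 and 10.7 CPM in the wild type and 19.4, 11 and 12.5 CPM in the knockout (edgeR adjusted p 0.322). Its share of the summed reads of Blnk and Lcp2 was 9.7 ± 3.04% and 11.2 ± 2.78% (exact permutation p 0.6, adjusted p 0.6), and the difference turned to -0.136 percentage points without wild-type replicate 2.

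Lat (ENSMUSG00000030742.7, chromosome 7, 126363827 to 126369705) encodes a membrane adaptor that ZAP70 phosphorylates in T cells. It had 114, 88 and 74 reads in the wild type and 42, 39 and 17 reads in the knockout, which gave 8.05, 4.96 and 4.91 CPM against 2.61, 1.83 and 1.12 CPM. All knockout libraries lay below the wild type, and replicate 1 was the highest of each group. The mean fell 3.19-fold, from 5.98 ± 1.8 to 1.85 ± 0.745 CPM. The log2 fold change was -1.68 ± 0.32 (SE), and the edgeR adjusted p was 0.015. Without wild-type replicate 1 the log2 fold change was -1.41 and the edgeR adjusted p 0.0619, and without both libraries numbered 2 they were -1.78 and 0.0607. Lat2, which encodes the related adaptor NTAL of B and myeloid cells, was at 47.9, 46.2 and 48.4 CPM in the wild type and 51, 40.1 and 37 CPM in the knockout (edgeR adjusted p 0.622). Lat took 11.1 ± 2.87% of the reads of this pair in the wild type and 4.06 ± 1% in the knockout, with no overlap between groups (exact permutation p 0.1, adjusted p 0.2).

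**Figure D2:**
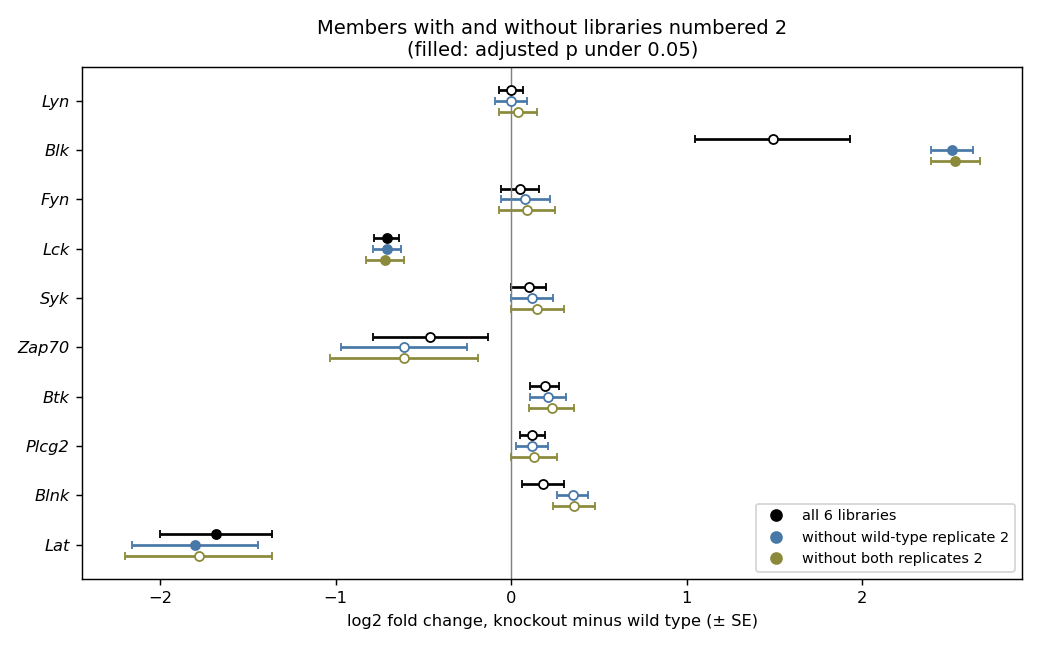
Log2 fold change of each member (x axis, knockout minus wild type, bars for the SE) with all 6 libraries (black), without wild-type replicate 2 (blue) and without both libraries numbered 2 (olive), filled where the adjusted p is under 0.05. Blk moves from 1.49 to 2.51 and 2.53, Lck is filled in all 3 fits and stays near -0.71, and Lat is open when both libraries numbered 2 are left out.

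**Figure D3:**
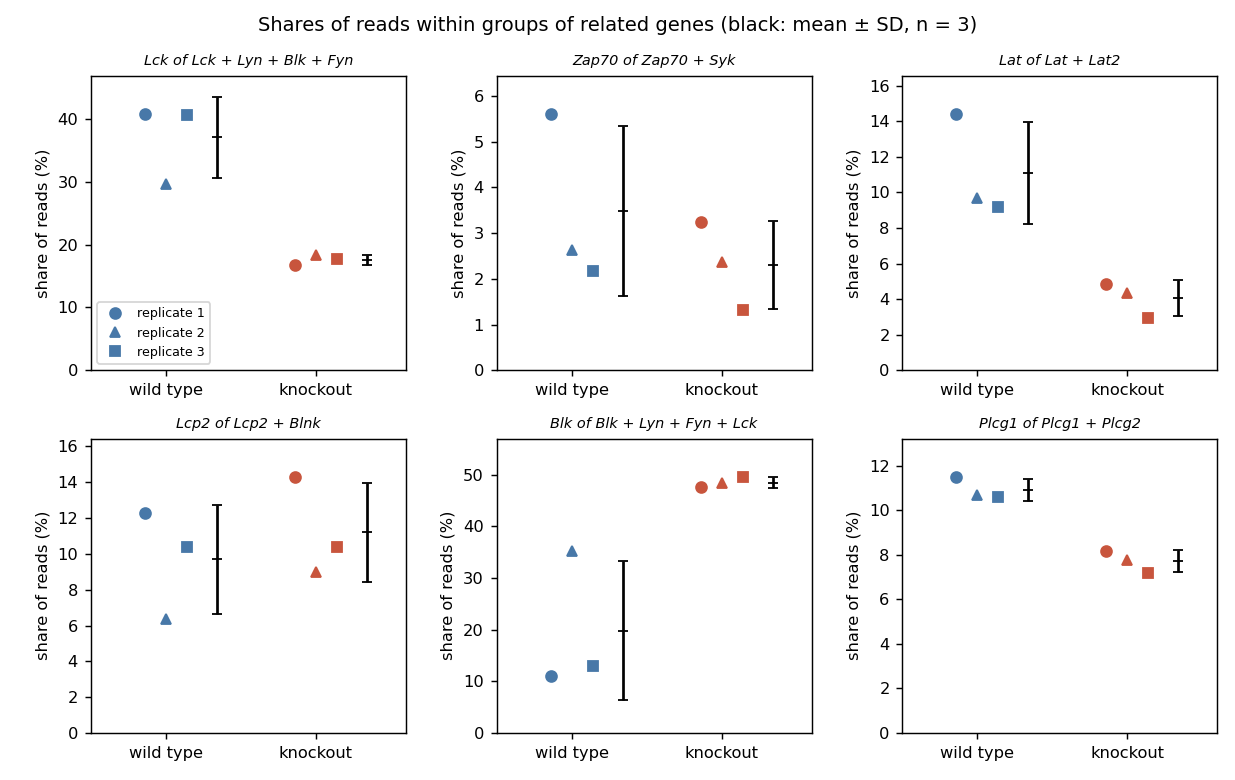
Share of reads (y axis, percent, from 0) that 1 gene takes of a group of related genes in each wild-type (blue) and knockout (red) library, with the mean and SD in black. Lck takes 37.1% of the reads of the 4 Src family members in the wild type and 17.6% in the knockout, and the groups overlap for Zap70 and Lcp2.

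Lck, Lat and Zap70 are T cell genes by their usual use, and markers of T and NK cells were measured beside them. Of 24 such markers, 8 had 0 reads in all 6 libraries, among them Bcl11b, Gata3, Thy1, Trbc1 and Themis, and 20 stayed below 1 CPM in every library. Their summed level was 4.71 to 10.5 CPM in the wild type and 4.95 to 8.08 CPM in the knockout, so these ranges overlapped. Some markers with few reads lay lower in every knockout library. These were Cd247 (7, 25 and 8 reads against 3, 6 and 5), Cd2 (2, 3 and 4 against 1, 0 and 0) and Prf1 (4, 2 and 2 against 0, 1 and 0). Klrb1c lay higher (2, 2 and 2 against 3, 11 and 5). None of them had enough reads to be tested. Of the 3 markers that passed the filter (Cd3g, Cd5 and Trac), none was called by edgeR, and their unadjusted p lay between 0.213 and 0.541. The 12 myeloid markers summed to between 0.924 and 2.18 CPM in all libraries. In bulk RNA, fewer cells with a transcript and less of it per cell cannot be told apart.

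The promoters of the called members are shown because Lck and Lat fell together. RefSeq (build GRCm38.p6) gave start windows for 8 of the 10 members (none for Lyn and Blk), in all 12 windows, and the 250 bases before each start were used. Lck has a distal and a proximal start there, and counts per gene do not show which was used. The sequences read 5′ to 3′ on the minus strand, on which both genes lie, and capitals mark CAGGTG, 1 form of the E box, where it occurs. Other forms of the E box, such as the cacgtg in the Lat window, were not searched for or marked.
Lck distal start, chr4:129573642-129573891: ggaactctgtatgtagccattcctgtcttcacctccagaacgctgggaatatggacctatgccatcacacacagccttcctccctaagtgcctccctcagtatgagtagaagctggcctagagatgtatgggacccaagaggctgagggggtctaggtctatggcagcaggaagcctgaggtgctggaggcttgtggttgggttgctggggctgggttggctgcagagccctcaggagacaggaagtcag
Lck proximal start, chr4:129558373-129558622: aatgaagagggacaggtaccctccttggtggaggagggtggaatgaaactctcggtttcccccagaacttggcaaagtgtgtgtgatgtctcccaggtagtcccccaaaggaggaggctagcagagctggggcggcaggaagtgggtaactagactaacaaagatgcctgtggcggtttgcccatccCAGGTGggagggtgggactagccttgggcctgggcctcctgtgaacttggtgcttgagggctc
Lat, chr7:126369569-126369818: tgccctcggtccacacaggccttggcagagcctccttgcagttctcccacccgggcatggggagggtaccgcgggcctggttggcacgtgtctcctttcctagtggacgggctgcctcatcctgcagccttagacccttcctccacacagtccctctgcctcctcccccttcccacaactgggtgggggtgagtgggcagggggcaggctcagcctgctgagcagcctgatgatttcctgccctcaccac
The proximal Lck window holds 1 CAGGTG, with its first base at position -63 from the start, and the other windows printed hold it on neither strand. On either strand, CAGGTG was found in 7 of the 12 member windows, in Blnk, Syk (both windows), Plcg2, Lck and Zap70 (2 windows), against 17.2% of all 32851 windows of that length. A match is a run of letters and not a measured binding site. A YY1 motif (GCCATNTT, 3.91% of all windows), an ETS motif (CCGGAAGT, 2.88%) and an EBF1 motif (TCCC and GGGA with 2 bases between them, 0.779%) were found on neither strand in any of the 12. Within 100 kb of the members, 30 other genes were tested, of which edgeR called 0 in either direction. The 10 tested neighbours of Lck ran from -0.33 to 0.29 in log2 fold change, and the 6 neighbours of Lat from -0.23 to 0.23. Among them, Hdac1, a histone deacetylase gene 5.7 kb from Lck, was at 113 ± 6 and 110 ± 1.42 CPM, and Spns1, 0.355 kb from Lat, at 32.7 ± 1.41 and 29.6 ± 4.41 CPM. These 2 were named as the nearest tested neighbours.

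The genes around the members were read from 5 lists. Among 9 tested relatives of the members (of 14 listed), 1 fell and 0 rose, beside 2.79% and 1.8% of all tested genes. Plcg1, the phospholipase C gamma that T cells use with LAT, went from 76.8 ± 1.53 to 56.7 ± 2.6 CPM (log2 -0.44 ± 0.07, edgeR adjusted p 0.00602), and its call was lost without both libraries numbered 2 (0.0947). Fgr, another Src family kinase, was at 15.3 ± 2.66 and 9.08 ± 2.43 CPM (edgeR adjusted p 0.0719). Clnk, an adaptor related to SLP65, was at 16 ± 0.0565 and 21.4 ± 3.07 CPM (edgeR adjusted p 0.0813), and Tec at 62.5 ± 5.25 and 73 ± 3.02 CPM (0.202). These 3 were named after their values were seen. Bmx and Frk had 0 reads in all libraries, and Src, Txk and Yes1 had too few to be tested. The median log2 fold change of the tested relatives was -0.26, against 0.004 over all tested genes.

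Among 19 regulators of these kinases, 3 fell and 0 rose (median log2 fold change 0.10), beside 2.79% and 1.8% of all tested genes. Dok2, an adaptor that recruits a Ras inhibitor, was at 41.3, 37.2 and 40.9 CPM in the wild type and 8.77, 11.5 and 5.21 CPM in the knockout. It fell 4.61-fold (log2 -2.21 ± 0.21, edgeR adjusted p 0.000468), and the groups were widely separated. Sla2 and Sla encode SLAP2 and SLAP, adaptors that resemble Src kinases without the kinase domain and dampen antigen receptor signals. Sla2 fell from 10.7 ± 0.978 to 3.31 ± 1.32 CPM (edgeR adjusted p 0.00458) and Sla from 108 ± 11.2 to 71.9 ± 14 CPM (0.0321). Leaving out any 1 library other than wild-type replicate 2 and knockout replicate 1 ended the call of Sla (adjusted p 0.0761 to 0.111), as did keeping only genes with a mean log2 CPM of 2 or more (0.0521). The remaining 16 were not called. They include Csk, which inhibits Src kinases, at 237 ± 15.7 and 257 ± 16.5 CPM, Ptprc, the CD45 phosphatase that activates them, at 640 ± 11.9 and 648 ± 22.5 CPM, and the inhibitory phosphatase genes Ptpn6 (SHP1) at 403 ± 14.8 and 487 ± 27.5 CPM and Inpp5d (SHIP1) at 469 ± 30.4 and 576 ± 37.2 CPM. Ptpn6 and Inpp5d had edgeR adjusted p of 0.0772 and 0.0774, and with these examples, too, the choice followed their values.

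Of 16 tested genes for other adaptors (of 19 listed), 1 fell and 1 rose (median 0.06). Grap2, which encodes GADS, the adaptor that links LAT to SLP76 in T cells, was at 85.5, 85.4 and 60.6 CPM in the wild type and 31.5, 38.4 and 28 CPM in the knockout. It fell 2.36-fold (log2 -1.24 ± 0.15, edgeR adjusted p 0.00139), with every knockout library below the wild type. Stap1, an adaptor that BTK and TEC family kinases phosphorylate, rose from 38 ± 2.35 to 48.3 ± 1.82 CPM (edgeR adjusted p 0.0443), a call lost without any 1 library (adjusted p 0.0606 to 0.16). Of 29 tested downstream effectors (of 34 listed), 2 fell and 0 rose (median -0.01). Vav2, a guanine exchange factor, was at 86.9 ± 5.12 and 69 ± 5.17 CPM (edgeR adjusted p 0.0484) and Prkca, a protein kinase C, at 75.5 ± 4.12 and 59.9 ± 2.96 CPM (0.037). Vav2 lost its call without any 1 library (adjusted p 0.0822 to 0.153), and Prkca lost it without any 1 library other than wild-type replicate 3 (0.0825 to 0.136). Both also lost it with library totals only (0.0568 and 0.0826) and at a filter of mean log2 CPM 2 (0.0504 and 0.0533). Of 11 tested receptor chains and coreceptors, 1 rose and 0 fell (median -0.04). This was Cd22, an inhibitory receptor that LYN phosphorylates, at 63.4 ± 4.9 and 88.2 ± 6.42 CPM (edgeR adjusted p 0.0104, and 0.0507 without wild-type replicate 1). Over all tested genes the share called was 2.79% lower and 1.8% higher (4.59% in all), and the median was 0.004.

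**Figure D4:**
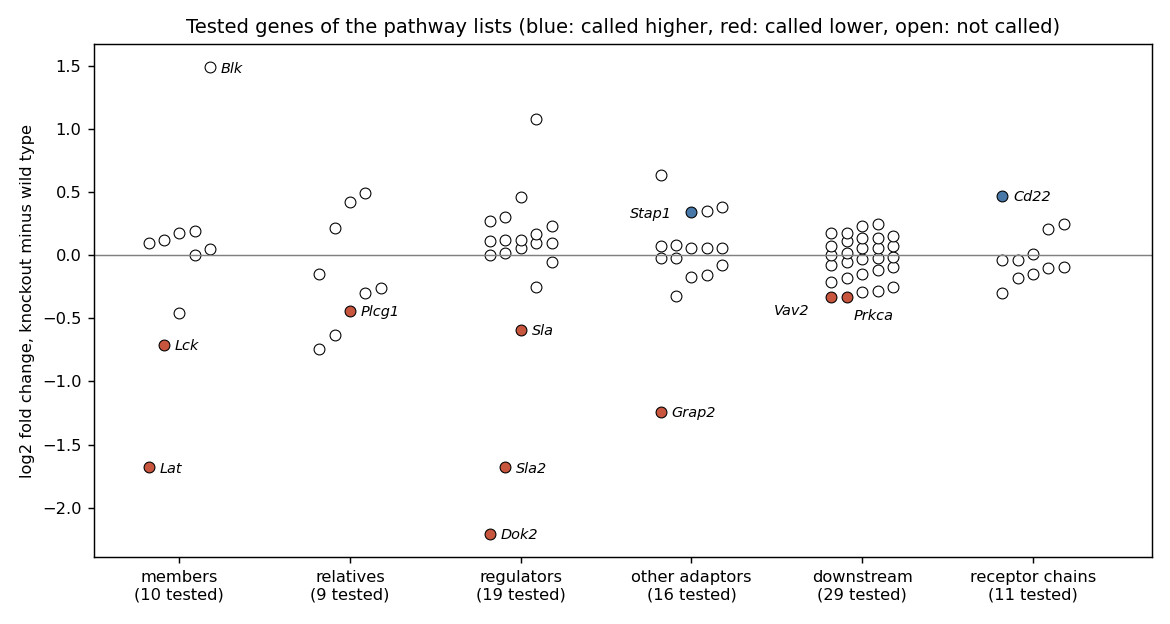
Log2 fold change (y axis, knockout minus wild type) of every tested gene of the members and of the 5 pathway lists, as points coloured by call (red lower, blue higher, open not called), with called genes and Blk named. The called genes with the largest decreases are Dok2 (-2.21), Lat and Sla2 (both -1.68) and Grap2 (-1.24), and the open Blk point stands at 1.49.

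For Blnk and for Lck, the tested member with the smallest p, the genes with the most similar profile over the 6 libraries were sought among 9403 others whose log2 CPM averaged 2 or more. Likeness was the root mean square difference between log2 CPM profiles, each centred on its own mean. Closest to Blnk were Ppp3ca, a catalytic subunit of the calcium-dependent phosphatase calcineurin (0.044), Rtn4rl1 (0.054) and Tifa (0.058). Ppp3ca was at 106, 142 and 116 CPM in the wild type and 149, 143 and 140 CPM in the knockout, with the lowest values in the same wild-type libraries as Blnk. Closest to Lck were Trnau1ap (0.062), Sigirr (0.065) and Impdh1 (0.066), an enzyme of guanine nucleotide synthesis. Impdh1 was at 90.9, 91 and 103 CPM in the wild type and 59, 58.2 and 56 CPM in the knockout, so that, as in Lck, no library of a group came near the other group. Profiles over 6 libraries in 2 groups are a description, since any gene with a similar group difference and little spread comes close.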

How the data were processed

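RNA-seq was analysed in 3 wild-type and 3 Msl2 knockout libraries, grouped and numbered by their titles. The ChIP-seq and input samples of the series (9) were not used here. Per the labels' protocols, the authors depleted ribosomal RNA from total RNA before library preparation. The deposited files hold 1 raw count per gene and library, per the file headers. Tools named in the submitters' processing notes are limma, featureCounts 2.0.0 and STAR 2.5.3a, with mm10 as the build. Not given in the sources used here are the annotation release, strandedness and multi-mapping rule, so reads of overlapping or closely related genes may be shared between them.

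Of 55335 identifiers, 54587 matched a symbol. Genes were kept by filterByExpr (13077), scaled by TMM and tested with edgeR 4.0.16 (quasi-likelihood, no covariate) in R 4.3.3, with Benjamini-Hochberg adjustment over all tested genes. Standard errors came from the fold change and the F statistic. Intervals at 95% used the residual plus the median prior degrees of freedom (6.15). Total counts per library were 14092278 to 20803227, and 3 reads correspond to 0.141 to 0.212 CPM, for counting error only. Every pair of libraries differed beyond sampling noise, with a chi-square of at least 7.38 per degree of freedom. Tested on simulated data (3 and 3 libraries, 12815 genes), the fit recovered 53% of genes changed 1.5-fold, 75.8% at 2-fold and 95% at 4-fold, and called 10 of 12623 unchanged genes.

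The members, the lists and the alternatives were chosen with earlier results of these data known. The list of relatives was shortened by 2 genes that are not reported here. By rule, genes named were the members, Msl2, called genes of each pathway list (up to 6), relatives in the read shares, and the 3 genes most like Blnk and the member with the smallest p. Named besides these are markers, nearest neighbours of Lck, Lat and Blk, and uncalled relatives and regulators, most chosen after their values were seen. The fit was repeated with DESeq2 1.42.0 and with limma-voom (limma 3.58.1), with RLE or total scaling, unfiltered or keeping genes at a mean log2 CPM of 2 or more, with a replicate block, and with libraries left out. Positions came from RefSeq GRCm38.p6 (mm10) by symbol. Levels of different genes were not ranked, since exon lengths were not used here.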

Additional observations from a re-analysis of the deposited data

How the results depend on the processing

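Across the 14 alternative fits, Lck, Dok2, Grap2 and Sla2 kept direction and call, and Blnk, Syk, Btk, Plcg2, Zap70 and Msl2 kept direction and stayed uncalled. Lyn, at a log2 fold change of -0.00102, turned to 0.00366 with RLE scaling, 0.0183 with library totals, 0.00802 with the filter at mean log2 CPM 2 and 0.00336 with DESeq2, and lay between -0.0272 and 0.0415 with libraries left out (0.0377 without knockout replicate 2). Fyn then lay between -0.0598 and 0.14, Lat between -1.98 and -1.41 (-1.78 without both replicates 2), and Blk between 1.14 and 2.53, with 2.51 without wild-type replicate 2. Lat was not tested under the filter at mean log2 CPM 2. Blk was also called without a filter (1.48), where each gene took the spread of the trend, and with limma-voom (1.81). Replicate numbers were not treated as pairs in the main fit, and whether same-numbered libraries belong together was not tested. Same-numbered libraries deviated together with correlations of 0.03, 0.21 and 0.4. Wild-type replicates 2 and 3 correlated best with the knockout library of their own number, and wild-type replicate 1 with knockout replicate 2 (0.27). With a replicate block the SE of Lat was 0.22 against 0.32, and that of Zap70 0.17 against 0.33. With the replicate block, Blk was called at 1.79 (adjusted p 0.0321), and 381 genes were higher (2.91%) and 565 lower, against 235 and 365. Without a filter 482 were higher and 721 lower (1.81% and 2.7% of 26696 genes), and the filter at mean log2 CPM 2 left 195 lower (2.04%). With libraries left out, 138 to 227 were higher and 224 to 316 lower (242 without wild-type replicate 1). Members called higher numbered 1 (Blk) without a filter, with limma-voom, with the block and without both replicates 2. Of all tested genes, these fits called 1.81%, 1.83%, 2.91% and 1.36% higher. With libraries left out the count was 0 to 1, beside 1.03% to 1.7% of tested genes. Members called lower numbered 1 under the filter at mean log2 CPM 2 and without both replicates 2, where 2.04% and 1.73% of tested genes were lower. With libraries left out the count was 1 to 2, beside 1.73% to 2.37% of tested genes. Of the relatives, 2 were higher without a filter, 2 were lower without a filter, with DESeq2 and with the block, and 0 to 1 were lower with libraries left out (0 without both replicates 2). Of the regulators, 1 was higher with library totals, 3 without a filter, with DESeq2 and with the block, and 0 to 1 with libraries left out. Over all tested genes, 1.71% were higher and 2.3% lower with library totals, 2.5% and 3.56% with DESeq2, and 2.91% and 4.32% with the block. Of the other adaptors, 3 were higher without a filter and 0 with any library left out or without both replicates 2. Of the downstream effectors, 1 was higher with the block, 0 were lower with library totals, with the filter at mean log2 CPM 2 and without both replicates 2, and 0 to 1 were lower with libraries left out. Of the receptor chains, 1 was lower without a filter, and with libraries left out 0 to 1 were higher and 0 to 1 lower. Chosen after seeing the data, leaving Blk out of the sum moved the difference in the Lck share from -19.5 to -12 percentage points. The Lcp2 share differed by -0.136 to 2.83 percentage points, turning without wild-type replicate 2 or knockout replicate 1 (-0.0201). At 17 to 144 reads per library, Lat and Zap70 are limited by depth more than the other members, and the simulated fit missed many 1.5-fold changes. Apart from those named, the cause of a changed call was not tested.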

Other observations

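Several shares of reads were computed after the values were seen and carry no test. Blk took 11.1%, 35.3% and 13% of the summed reads of Blk, Lyn, Fyn and Lck in the wild-type libraries (replicates 1, 2 and 3) and 47.6%, 48.4% and 49.6% in the knockout. Plcg1 took 11.5%, 10.7% and 10.6% of the summed reads of Plcg1 and Plcg2 in the wild type. In the knockout it took 8.19%, 7.77% and 7.2%, with no overlap between the groups. Wild-type replicate 2 lay between the other wild-type libraries and the knockout in Blk but inside the wild-type range in Plcg1.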
